A study of Mus musculus with 12 samples.

Results

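The enzymes that methylate lysine 4 of histone H3 (H3K4) were followed through 9 genes of the 16352 in the deposited count table. These were Kmt2a, Kmt2b, Kmt2c, Kmt2d, Kmt2e, Setd1a and Setd1b, which encode the KMT2 and SETD1 family, and Men1 and Psip1, which encode adaptors of KMT2A and KMT2B. The genes were chosen by name, with earlier results of these data known, and no record gives the measured values they were selected on. The levels and fold changes of every comparison are therefore counted as used in the choice, and are given for these genes as a description with standard errors but no p-value. Where one of these genes is said to be called, to rise or to fall, this places it in the fit over all genes and is no test of it. All 9 passed the filter on low counts that 12404 genes passed.

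The libraries were made from RNA of CD8 T cells of the spleen of C57BL/6 mice, in 4 groups of 3. The groups were wild type (WT) at 0 h, WT at 48 h, Trmt61A conditional knockout (Trmt61A-cKO) at 0 h and Trmt61A-cKO at 48 h. TRMT61A is the catalytic subunit of the enzyme that adds a methyl group to position 1 of adenosine in transfer RNA. The labels name neither the Cre line nor the age of the mice, give no treatment for the interval, and do not state that the 3 libraries of a group are separate animals, so p-values here measure the spread between these libraries, which may in part be technical.

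Methylation of H3K4 marks promoters and enhancers that are in use. KMT2A and KMT2B act at promoters in complexes that menin, the product of Men1, and LEDGF, the product of Psip1, help to hold on chromatin. KMT2C and KMT2D place the monomethyl mark at enhancers, and SETD1A and SETD1B place much of the trimethyl mark at active promoters. KMT2E carries a SET domain without clear methyltransferase activity and reads trimethylated H3K4 through its PHD finger. WDR5, RBBP5, ASH2L and DPY30 form the core that the active family members share. In T cells, KMT2A and menin have been linked to the maintenance of memory cells.

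The promoters of 5 of the 9 genes were in the RefSeq table (build GRCm38.p6) and are shown because these genes include the 3 that were higher in cKO at 48 h and 2 of the 3 outside the fall over time described below. Each sequence is the 250 bases before the annotated start, on the gene's own strand, with every CG dinucleotide in capitals. They lie at chr9:44881290-44881539 on the minus strand (Kmt2a), chr5:25498784-25499033 on the minus strand (Kmt2c), chr15:98871206-98871455 on the minus strand (Kmt2d), chr19:6334729-6334978 on the plus strand (Men1, the first of 3 annotated windows) and chr7:127777139-127777388 on the plus strand (Setd1a).
Kmt2a: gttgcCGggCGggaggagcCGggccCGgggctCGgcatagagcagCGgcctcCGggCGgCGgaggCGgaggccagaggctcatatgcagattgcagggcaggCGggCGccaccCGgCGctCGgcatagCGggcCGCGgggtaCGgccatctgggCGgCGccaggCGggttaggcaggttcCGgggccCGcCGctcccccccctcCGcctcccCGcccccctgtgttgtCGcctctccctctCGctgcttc
Kmt2c: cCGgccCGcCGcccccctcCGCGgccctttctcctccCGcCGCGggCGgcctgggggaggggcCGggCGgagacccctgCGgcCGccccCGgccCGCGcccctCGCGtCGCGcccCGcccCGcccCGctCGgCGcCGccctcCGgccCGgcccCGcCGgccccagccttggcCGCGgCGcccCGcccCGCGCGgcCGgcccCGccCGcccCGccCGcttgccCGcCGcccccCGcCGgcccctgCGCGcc
Kmt2d: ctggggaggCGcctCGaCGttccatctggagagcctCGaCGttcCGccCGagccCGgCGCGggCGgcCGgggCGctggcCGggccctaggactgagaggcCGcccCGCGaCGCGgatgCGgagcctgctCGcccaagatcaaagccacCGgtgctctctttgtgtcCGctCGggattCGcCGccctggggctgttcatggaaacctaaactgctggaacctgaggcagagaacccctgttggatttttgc
Men1: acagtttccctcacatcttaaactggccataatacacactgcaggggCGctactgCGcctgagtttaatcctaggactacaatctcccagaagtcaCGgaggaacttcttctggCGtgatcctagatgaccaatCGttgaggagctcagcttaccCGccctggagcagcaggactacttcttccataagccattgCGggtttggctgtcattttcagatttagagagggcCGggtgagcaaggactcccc
Setd1a: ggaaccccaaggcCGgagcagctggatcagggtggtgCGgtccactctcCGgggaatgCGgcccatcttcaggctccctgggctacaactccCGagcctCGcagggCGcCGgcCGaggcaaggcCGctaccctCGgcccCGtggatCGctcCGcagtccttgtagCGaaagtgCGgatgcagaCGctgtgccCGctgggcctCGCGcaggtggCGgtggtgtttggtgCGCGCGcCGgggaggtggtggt
The window of Kmt2c held 48 CG dinucleotides, that of Kmt2a 29, that of Kmt2d 26, that of Setd1a 25 and that of Men1 8, against a median of 16 over the 9936 tested genes in the table. The first 4 were thus CpG-rich and Men1 was below the median. On either strand, the GC box GGGCGG was found in every window except that of Setd1a, and 32.9% of the 27025 promoters in the table hold it. This larger set, used for all motif shares, has a median of 6 CG dinucleotides, so the shares are not those of tested genes. CCAAT was found in that of Men1 alone (34.5% of promoters), and CACGTG (6.05%) and CCGGAAG (7.05%) in none of the 5.

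Libraries held 34341847 to 40270659 counts. Levels are given as CPM (counts divided by the TMM-scaled library size in units of 1e6), that is, as a share of each library's RNA, in which fewer cells of a type and less RNA per cell cannot be told apart. Trmt61a stood at 27.4, 29.8 and 26.3 CPM in WT at 0 h and at 42.0, 38.2 and 34.8 CPM in WT at 48 h. It stood at 28.1, 0.807 and 1.88 CPM in cKO at 0 h and at 42.5, 0.956 and 1.1 CPM in cKO at 48 h, so the library labelled cKO replicate 1 was at the WT level at both times. WT replicate 3 stood apart in another way: at both times it held 0 counts of the Y-linked genes Uty, Kdm5d and Eif2s3y, against at least 694 in every other library. The summed level of 8 CD8 T cell and pan-T markers was 5291 to 5936 CPM over the 6 libraries at 0 h and 2524 to 2625 CPM at 48 h. For 8 B cell markers the sum was 107 to 185 CPM in WT and 88.3 to 106 CPM in cKO at 0 h, falling to between 17.3 and 26.0 CPM in the 48 h libraries. For 8 myeloid markers the sum was 19.8 to 39.1 CPM at 0 h and no more than 2.1 CPM at 48 h, with 3 of them at 0 in WT and 1 at 0 in cKO.

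Expression of the 9 genes was compared first within WT cells at 0 h, per kilobase of coding sequence, since their coding lengths ran from 1584 nt (Psip1) to 16764 nt (Kmt2d). This scale leaves out untranslated bases, whose share differs between the genes: the Psip1 transcript has 3251 nt. The order of the genes and the overlaps between them, here and at 48 h, hold for this scale only. Psip1 had the highest level on this scale, 144 ± 2.49 CPM per coding kb (SD, n = 3). Kmt2e followed at 56.5 ± 5.22, Kmt2a at 49.8 ± 8.32, Kmt2d at 41.1 ± 5.99 and Men1 at 38.7 ± 1.91 CPM per coding kb. Below them came Kmt2b at 28.2 ± 1.80, Kmt2c at 27.8 ± 4.21, Setd1a at 23.5 ± 1.19 and Setd1b at 21.3 ± 2.57 CPM per coding kb. Only Psip1 and Kmt2e, and Men1 and Kmt2b, were neighbours in that order whose mean ± SD ranges did not overlap.

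At 48 h in WT the order on the same scale was different. Psip1 was again first at 134 ± 3.59 CPM per coding kb, but Men1 at 45.2 ± 3.92 and Setd1a at 30.4 ± 1.94 now stood next to it. Kmt2e at 23.6 ± 2.54, Kmt2a at 18.9 ± 2.59, Kmt2b at 15.2 ± 0.865 and Kmt2d at 12.5 ± 0.714 CPM per coding kb followed. Setd1b at 8.12 ± 0.868 and Kmt2c at 7.09 ± 0.969 CPM per coding kb were last. Kmt2e and Kmt2a, and Setd1b and Kmt2c, were the neighbours whose mean ± SD ranges overlapped. In cKO at 48 h the means ran from 133 CPM per coding kb for Psip1 through 35.7 for Men1, 30.2 for Setd1a, 29.8 for Kmt2a and 26.9 for Kmt2e to 17.8 for Kmt2d, 16.5 for Kmt2b, 10.2 for Kmt2c and 10.02 for Setd1b.

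**Figure D1:**
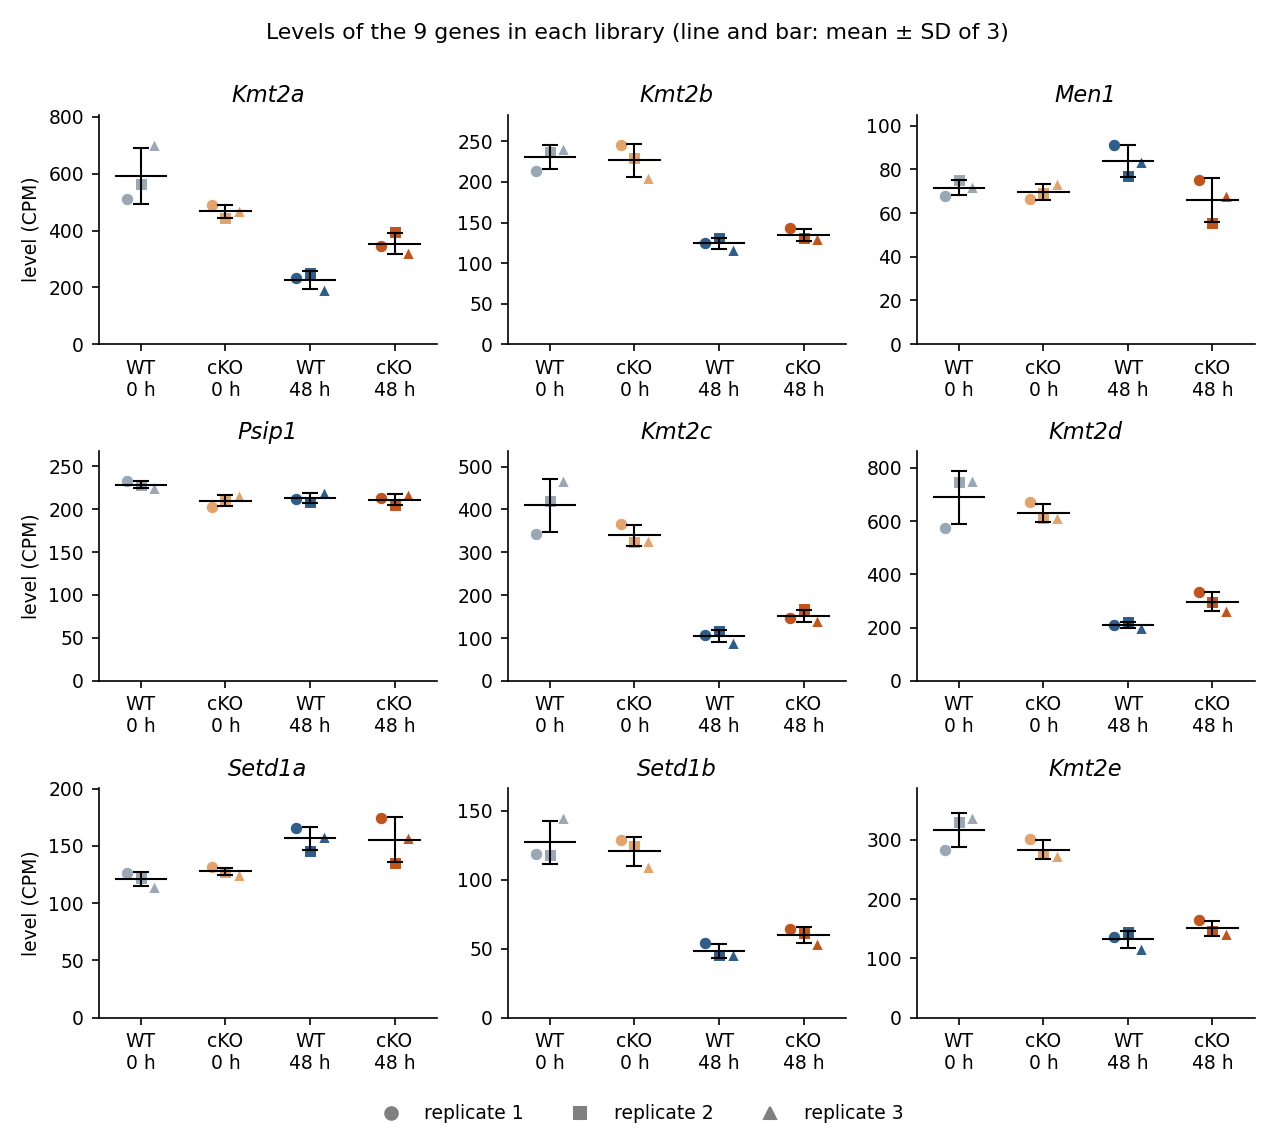
Level of each of the 9 genes in CPM (y axis, starting at 0) in the 12 libraries, by group; symbols give the replicate number, and the line and bar give mean ± SD of 3. Kmt2a, Kmt2b, Kmt2c, Kmt2d, Kmt2e and Setd1b are lower in all 6 libraries at 48 h than in all 6 at 0 h, Setd1a is higher, and Men1 and Psip1 overlap.

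Between 0 h and 48 h, 6 of the 7 KMT2 and SETD1 genes fell in WT cells and Setd1a alone of them rose. In the same comparison 75.4% of the 12404 genes tested were called, 36.9% higher and 38.4% lower, by edgeR's quasi-likelihood test at an adjusted p under 0.05, the threshold for "called", "rose" and "fell" throughout. The median log2 fold change of the 9 genes was −1.26, beside −0.02 over all genes tested. The genes that fell were the promoter enzymes Kmt2a and Kmt2b, the enhancer enzymes Kmt2c and Kmt2d, Kmt2e and Setd1b. The SETD1 branch was thus split, with Setd1b lower and Setd1a higher. Markers of B and myeloid cells, given above, fell over the same interval, and their part in these changes was not tested.

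Kmt2c, one of the enhancer monomethyltransferases, had the lowest fold change. It stood at 343, 420.5 and 465 CPM in the 3 WT libraries at 0 h and at 106, 117 and 89.2 CPM at 48 h. Every 48 h library lay far below every 0 h library. The log2 fold change was −1.97 ± 0.12 (SE). Its relative Kmt2d, the other enhancer enzyme, stood at 573, 745 and 749 CPM at 0 h and at 210.04, 220.5 and 197 CPM at 48 h, with a log2 fold change of −1.72 ± 0.11. The 48 h libraries of Kmt2d were again all below the 0 h libraries, and the lowest at 0 h was WT replicate 1 for both genes.

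Kmt2a, the promoter enzyme whose gene is broken in a class of human leukaemias, stood at 509.8, 564.4 and 702 CPM in WT at 0 h and at 234, 250.4 and 191 CPM at 48 h. WT replicate 3 was the highest of the 3 libraries at 0 h and the lowest at 48 h. The log2 fold change was −1.39 ± 0.12. Kmt2b, its closest relative, stood at 214, 237 and 241 CPM at 0 h and at 125, 131 and 117 CPM at 48 h, a log2 fold change of −0.89 ± 0.08. Both genes were separated completely between the 2 times.

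Setd1b, one of the 2 enzymes for bulk trimethylation, went from 119, 118 and 145 CPM to 54.3, 45.7 and 45.1 CPM, with a log2 fold change of −1.39 ± 0.11. Kmt2e, the family's reader of trimethylated H3K4, went from 283, 330.2 and 337 CPM to 136, 144 and 116 CPM, with a log2 fold change of −1.26 ± 0.10. Setd1a, the second bulk trimethylase, moved the other way, from 126, 122 and 114 CPM to 166, 146 and 158 CPM, with a log2 fold change of 0.37 ± 0.09. Per coding kb, the paralogues Setd1a and Setd1b overlapped in mean ± SD at 0 h and did not at 48 h. That overlap depends on the scale, since their coding lengths are 5148 and 5955 nt and their transcripts 6487 and 8857 nt. In the annotation, 3523 of the 6795 exonic bases of Setd1a are shared with a same-strand gene model, Gm49388, which is not in the table, so that reads of the 2 models cannot be told apart.

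The adaptors were not called in the fit of all 12 libraries. Men1 stood at 67.9, 75.0 and 72.1 CPM in WT at 0 h and at 91.3, 76.8 and 83.2 CPM at 48 h, all 3 above the 0 h libraries, with a log2 fold change of 0.22 ± 0.10. Psip1 stood at 232, 228 and 224 CPM at 0 h and at 212, 208 and 219 CPM at 48 h, all 3 below the 0 h libraries, with a log2 fold change of −0.10 ± 0.06. Among all genes tested, 39% were higher in all 3 libraries at 48 h and 39.9% lower, so a separation of this kind was common. Men1 was called higher in 7 of 23 alternatives, among them DESeq2 and the fit without both libraries labelled cKO replicate 1. Psip1 was called lower in 2, upper-quartile scaling (−0.20) and an offset for coding length (−0.19). Counts per gene do not tell the long and short LEDGF isoforms apart, and 483 exonic bases of Psip1 lie opposite Snapc3, whose counts cannot be told from those of Psip1 there because no strand setting is given. The same holds for 972 exonic bases of Kmt2e opposite Srpk2.

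In cKO cells the same 6 genes fell and Setd1a rose, beside 72.6% of genes tested that were called, 36.2% lower and 36.4% higher. The median log2 fold change of the 9 genes was −0.75, and −0.02 over all genes tested. Kmt2c went from 366, 324 and 327 CPM to 146, 167 and 139.7 CPM, a log2 fold change of −1.17 ± 0.12. Kmt2d went from 670.2, 613 and 611 CPM to 333, 297 and 263 CPM, a log2 fold change of −1.08 ± 0.10. Kmt2a went from 491, 444.7 and 468 CPM to 346, 395.5 and 321 CPM, a log2 fold change of −0.40 ± 0.12. For each of the 3 genes every 48 h library was below every 0 h library. Over all 9 genes, 6 were lower in this way and 1 was higher, beside 37.5% and 37.3% of genes tested.

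The other log2 fold changes in cKO were −1.02 ± 0.11 for Setd1b, −0.91 ± 0.10 for Kmt2e, −0.75 ± 0.08 for Kmt2b and 0.28 ± 0.09 for Setd1a. Men1, at −0.07 ± 0.10, and Psip1, at 0.01 ± 0.06, were not called. Without both libraries labelled cKO replicate 1, Kmt2a (−0.35) and Setd1a (0.21) were no longer called in the cKO series, and the other 5 were.

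**Figure D2:**
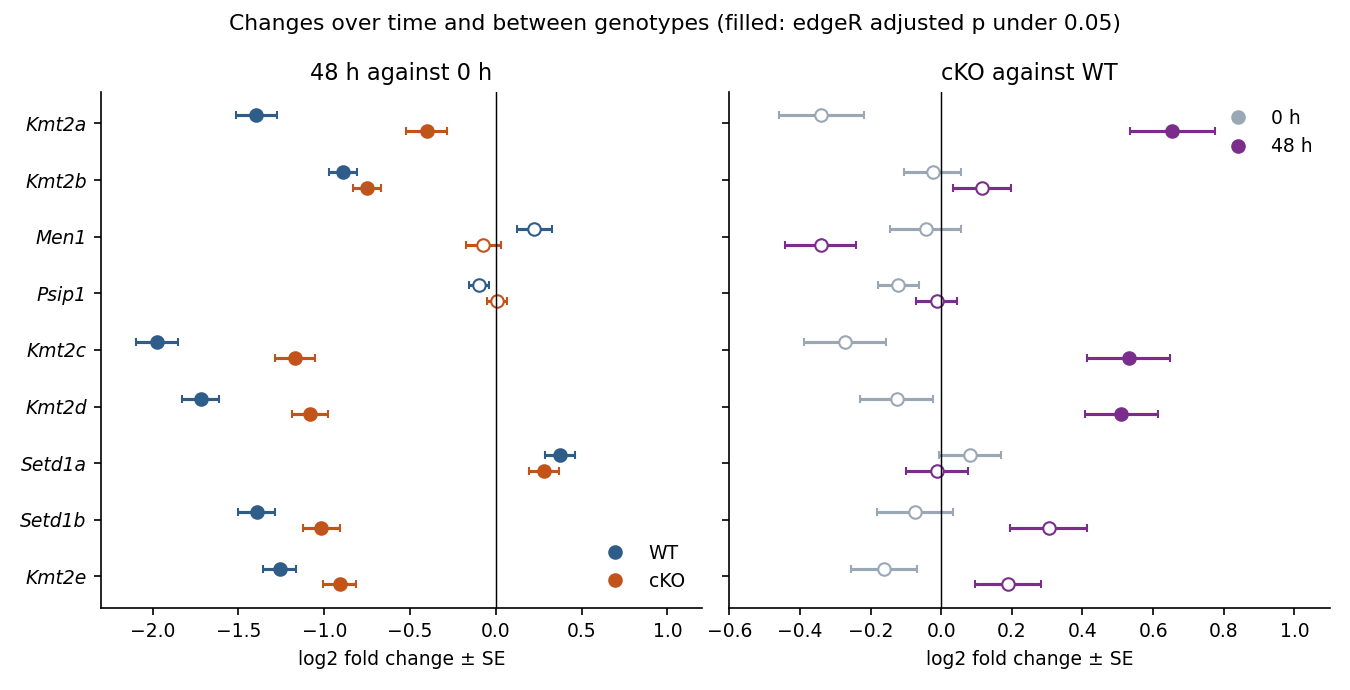
Log2 fold change ± SE (x axis) of the 9 genes over time in WT and cKO (left) and between genotypes at 0 h and 48 h (right); filled points have an edgeR adjusted p under 0.05. The points of all 9 genes lie closer to 0 over time in cKO than in WT. In cKO against WT at 48 h, Kmt2a, Kmt2b, Kmt2c, Kmt2d, Kmt2e and Setd1b lie to the right of 0, and of these Kmt2a, Kmt2c and Kmt2d are filled.

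At 0 h none of the 9 genes was called between cKO and WT by edgeR, in a comparison that called 1 gene of 12404 (0.00806%) higher and 0 lower. At an unadjusted p under 0.05, 2 of the 9 passed, and 1163 of all genes tested. DESeq2 and limma-voom also called none of the 9. Over all genes limma-voom called 0, and DESeq2 22 higher and 18 lower. The largest differences were those of Kmt2a, −0.34 ± 0.12, and Kmt2c, −0.27 ± 0.12 on the log2 scale, and the median of the 9 was −0.12. Kmt2a (444.7 to 491 CPM in cKO, 509.8 to 702 CPM in WT) and Psip1 (202 to 215 CPM in cKO, 224 to 232 CPM in WT) were lower in every cKO library than in every WT library, as were 7.35% of genes tested. No member was higher in every cKO library, beside 7.32% of genes tested. The summed B cell markers were also lower in every cKO library at 0 h. So was the sum of 4 CD4 T cell markers, at 22.5 to 27.0 CPM in cKO and 29.6 to 49.5 CPM in WT. The ranges of NK cell markers (2.87 to 5.38 CPM in cKO, 4.57 to 11.2 CPM in WT) and of erythroid markers (45.5 to 89.8 CPM in cKO, 7.99 to 77.6 CPM in WT) overlapped. The part of these cells in the differences was not tested.

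At 48 h Kmt2a, Kmt2c and Kmt2d were higher in cKO than in WT, and no member was lower. Of all genes tested 4.18% were called, 3.1% higher and 1.09% lower. The median log2 fold change was 0.19 over the 9 genes and 0.00 over all genes tested. Kmt2a stood at 346, 395.5 and 321 CPM in cKO and at 234, 250.4 and 191 CPM in WT, a log2 fold change of 0.65 ± 0.12. Kmt2c stood at 146, 167 and 139.7 CPM in cKO and at 106, 117 and 89.2 CPM in WT, 0.53 ± 0.12 on the log2 scale. Kmt2d stood at 333, 297 and 263 CPM in cKO and at 210.04, 220.5 and 197 CPM in WT, 0.51 ± 0.10 on the log2 scale. All 3 cKO libraries lay above all 3 WT libraries for each of these genes, as for 13.2% of genes tested. The library labelled cKO replicate 1, with Trmt61a at the WT level, was among them and was the highest of all for Kmt2d.

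These 3 calls depended on single libraries, as did most calls of this comparison. Of 23 alternative fits, Kmt2a was called in 20, Kmt2d in 19 and Kmt2c in 18. Without WT replicate 3 at 48 h, or without cKO replicate 2 at 48 h, edgeR called none of the 9 higher, with log2 fold changes that kept their sign. Over all genes these 2 fits called 47 and 64 higher, against 384 with all 12 libraries. Leaving out WT replicate 3 at both times, the WT pair without Y-linked reads, also left none of the 9, and 15 genes higher and 1 lower of all tested. Without both libraries labelled cKO replicate 1, by contrast, Kmt2a (0.67), Kmt2c (0.55) and Kmt2d (0.42) were called higher and Men1 (−0.45) lower, while 1133 genes were called higher and 1110 lower over the whole table.

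The remaining members were not called at 48 h. Setd1b differed by 0.30 ± 0.11, with 64.5, 61.5 and 53.1 CPM in cKO and 54.3, 45.7 and 45.1 CPM in WT, groups that overlapped in 1 library. Kmt2e differed by 0.19 ± 0.09 and Kmt2b by 0.12 ± 0.08, while Setd1a and Psip1 both differed by −0.01 (SE 0.09 and 0.06). Men1 stood at 75.2, 55.4 and 67.7 CPM in cKO and at 91.3, 76.8 and 83.2 CPM in WT, −0.34 ± 0.10 on the log2 scale. Men1 was the one member lower in all 3 cKO libraries, as were 11% of genes tested.

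The difference between the genotypes' changes over time was positive for 7 of the 9 genes, with a median of 0.35 on the log2 scale beside 0.01 over all genes tested. The median was 0.36 over the 129 tested genes with at least 8 kb of coding sequence, which include Kmt2a, Kmt2b, Kmt2c and Kmt2d. From 4 to 8 kb, the bin of Setd1a, Setd1b and Kmt2e, it was 0.15. Kmt2a had the highest value of the 9, at 0.99 ± 0.17. It was the one member of the 9 called, and over all genes 13 were called higher (0.105%) and 1 lower (0.00806%), from which nothing is read for a gene chosen with these values known. Kmt2c at 0.80 ± 0.17, Kmt2d at 0.64 ± 0.15, Setd1b at 0.38 ± 0.15, Kmt2e at 0.35 ± 0.13, Kmt2b at 0.14 and Psip1 at 0.11 were not. Nor were Men1 at −0.30 ± 0.14 and Setd1a at −0.09. The call for Kmt2a was lost without any 1 of 8 libraries, among them both WT replicates 3, and without WT replicate 3 at both times. It was also lost in a fit that treated same-numbered libraries of a genotype as pairs (the replicate block). The call was present, with those of Kmt2c and Kmt2d, without both libraries labelled cKO replicate 1. Over all genes that fit called 446 higher and 422 lower for the interaction.

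Coding length moved with these differences. Kmt2a, Kmt2b, Kmt2c and Kmt2d belong to the 129 tested genes with at least 8 kb of coding sequence, beside a median of 1392 nt over tested genes. In cKO against WT at 48 h the median log2 fold change was −0.06 for genes under 1 kb, 0.00 from 1 to 2 kb, 0.04 from 2 to 4 kb, 0.13 from 4 to 8 kb and 0.26 from 8 kb up, where 17.1% were called higher. In WT over time the medians in the same order were 0.11, −0.02, −0.13, −0.23 and −0.67, and in cKO they ended at −0.39. For the interaction they were −0.06, 0.00, 0.06, 0.15 and 0.36. Relative to the WT mean at 48 h, the genes from 8 kb up had a median of 0.233, 0.285 and 0.180 in the 3 cKO libraries and of −0.00157, 0.101 and −0.0958 in the 3 WT libraries. The groups did not overlap, and the lowest WT library was replicate 3.

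With an offset for coding length in the fit, the log2 fold changes in cKO against WT at 48 h were 0.42 for Kmt2a, which was called, and 0.26 for Kmt2c and 0.23 for Kmt2d, which were not. The interaction of Kmt2a was 0.71 and not called in that fit. Over all genes it called 200 higher and 88 lower at 48 h. Men1 and Psip1, with 1851 and 1584 nt, lie in the bin from 1 to 2 kb.

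**Figure D3:**
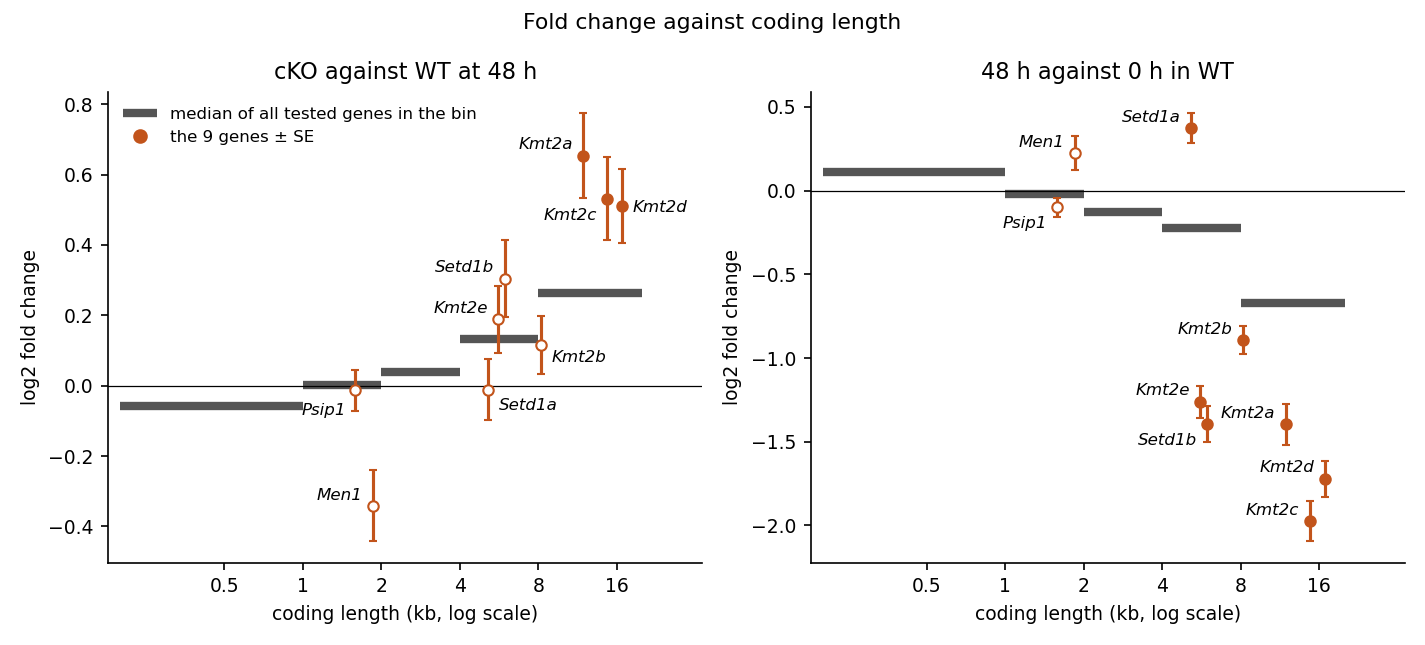
Log2 fold change (y axis) against coding length in kb (x axis, log scale) for cKO against WT at 48 h (left) and 48 h against 0 h in WT (right). Points are the 9 genes ± SE, filled where called; bars are medians of all tested genes per length bin, drawn with outer limits for the first and last bin that are not the data's, and they run from −0.06 to 0.26 on the left and from 0.11 to −0.67 on the right.

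The core subunits did not share the course of the enzymes. This list and those below were also chosen with earlier results known, and most genes below are named for a small adjusted p. The p-values printed for list genes therefore place them in the fit over all genes and are no independent test. In WT over time 3 of the 4 rose: Dpy30 by 1.17 ± 0.10 on the log2 scale (edgeR adjusted p = 7.13e-08), Wdr5 by 0.85 ± 0.08 (1.1e-07) and Ash2l by 0.46 ± 0.06 (1.28e-05), while Rbbp5 differed by −0.04 ± 0.08 (0.652). In cKO all 4 rose, Rbbp5 by 0.27 ± 0.08, beside 36.4% of genes tested. With the coding-length offset Rbbp5 was at 0.15 in cKO over time and not called. The 4 subunits have coding lengths of 297 nt (Dpy30) to 1869 nt (Ash2l), shorter than every KMT2 and SETD1 gene. Between genotypes at 48 h none of the 4 was called by edgeR: Rbbp5, a bridge between WDR5 and ASH2L, differed by 0.29 ± 0.08 (edgeR adjusted p = 0.0566), Dpy30 by −0.24, Wdr5 by −0.14 and Ash2l by 0.00. At an unadjusted p under 0.05, 2 of the 4 passed there, as did 2753 of the 12404 genes tested. DESeq2 called 1 of the 4 higher. Rbbp5 was called higher (0.37, edgeR adjusted p = 0.00456) and Dpy30 lower (−0.37, edgeR adjusted p = 0.0114) once the pair of libraries labelled cKO replicate 1 was left out.

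Of 12 partners of single complexes, 2 rose and 7 fell in WT over time, beside 36.9% and 38.4% of all genes tested, the shares against which every list's count over time in WT is to be read. Hcfc1, a partner of the KMT2A and SETD1 complexes, by 1.01 and Paxip1, a partner of KMT2C and KMT2D, by 1.11 on the log2 scale were the pair that rose, named after their values were seen. Wdr82, which ties SETD1 to RNA polymerase II, fell by 0.24 and Bod1l, a SETD1 partner that guards replication forks, by 0.67. In cKO against WT at 48 h 1 of the 12 rose and 0 fell, beside 3.1% and 1.09% of all genes tested. The partner that rose was Tasp1, the protease that cleaves KMT2A and KMT2B into their mature fragments. It stood at 29.8, 28.3 and 29.7 CPM in cKO and 21.1, 19.5 and 22.6 CPM in WT. All cKO libraries were above all WT libraries, as for 13.2% of genes tested. The difference was 0.47 ± 0.09 on the log2 scale (edgeR adjusted p = 0.0146). Bod1l (0.24, edgeR adjusted p = 0.0625), Pagr1a (−0.17) and Wdr82 (0.14) were not called.

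The enzymes that remove H3K4 methylation were not called between genotypes at 48 h by edgeR, 0 of 5. At an unadjusted p under 0.05, 2 of them passed, as did 2753 of the 12404 genes tested. Kdm5b differed by 0.22 ± 0.12, Kdm5a by 0.16 ± 0.07, and Kdm1b and Kdm5c by −0.18 each (SE 0.08 and 0.17). Kdm5c is X-linked and stood at 244 CPM in WT replicate 3 against 140 and 162 CPM in the other two WT libraries at 0 h. In WT over time Kdm5a fell by 0.69 and Kdm1b by 0.68 on the log2 scale, and 1 of the 5 rose. Among 10 readers of H3K4 methylation, 2 rose and 6 fell in WT over time, beside the same 36.9% and 38.4% of all genes. Ing4, a reader within a histone acetyltransferase complex, fell by 1.34 ± 0.09 on the log2 scale there. In cKO against WT at 48 h it rose by 0.36 ± 0.09 (edgeR adjusted p = 0.0429), the only reader called, beside 3.1% of all genes called higher. Phf2 (0.19), Phf8 (0.17) and Ing5 (0.16) were not.

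Of 8 other SET-domain methyltransferases, 3 rose in cKO against WT at 48 h, beside 3.1% of all genes tested. Ash1l, a large enzyme for H3K36, stood at 80.01, 91.4 and 84.9 CPM in cKO and 66.8, 69.2 and 58.3 CPM in WT, 0.40 ± 0.09 apart on the log2 scale (edgeR adjusted p = 0.0275). Setd2, the H3K36 trimethylase whose mark the PWWP domain of LEDGF binds, differed by 0.31 ± 0.06 (edgeR adjusted p = 0.0187) and Setd7, which monomethylates H3K4 and other proteins, by 0.30 ± 0.07 (edgeR adjusted p = 0.0383). Both were higher in all 3 cKO libraries than in all WT libraries, as were Ash1l and 13.2% of genes tested. Nsd3, another H3K36 enzyme, was at 0.17 and not called. In WT over time 6 of the 8 fell, with Setd2 at −0.63, Ash1l at −0.61 and Setd7 at −0.40, and 2 rose.

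Of 10 elongation factors that are fusion partners or cofactors of KMT2A in leukaemia, 4 rose and 4 fell in WT over time, near the 36.9% and 38.4% of all genes tested. In cKO against WT at 48 h 1 of the 10 rose, beside 3.1% of all genes. Aff1, a scaffold of the super elongation complex, stood at 94.3, 129.6 and 125 CPM in cKO and 89.1, 88.2 and 80.8 CPM in WT, 0.44 ± 0.11 on the log2 scale (edgeR adjusted p = 0.0373). The lowest cKO library was the one labelled cKO replicate 1, which still lay above the WT libraries. Mllt10 (0.24), Mllt6 (0.14) and Cdk9 (−0.17) were not called. At 0 h and for the interaction edgeR called no gene of these lists in the fit of all 12 libraries. Without WT replicate 3 at 48 h it called none of the list genes higher at 48 h, and the same held without cKO replicate 2 and in the fit of the 6 libraries of 48 h alone. With the coding-length offset described above it called 1 partner, 1 reader and none of the other lists' genes higher.

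The fit without both libraries labelled cKO replicate 1, those with Trmt61a at the WT level, went the other way. Over all genes it called 1133 higher and 1110 lower at 48 h, 12 and 7 at 0 h, and 446 and 422 for the interaction. At 48 h it called the 6 list genes given above (Tasp1, Ing4, Ash1l, Setd2, Setd7 and Aff1) and Rbbp5 higher, with log2 fold changes of 0.57 for Aff1, 0.44 for Ash1l and 0.46 for Tasp1. It also called Bod1l (0.31), Mllt10 (0.29) and Nsd3 (0.21) higher, and Cdk9 (−0.26) and Dpy30 lower. At 0 h it called Smyd2, a lysine methyltransferase, higher (0.44, edgeR adjusted p = 0.0477). For the interaction it called Aff1 (0.76), Ash1l (0.62), Setd2 (0.48), Bod1l (0.39) and Rbbp5 (0.38) higher and Smyd2 (−0.61) lower.

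Of 13 genes reported as KMT2A or menin targets in other cells, 9 passed the filter. In WT over time 4 rose and 5 fell, with a median log2 fold change of −0.87. Cdk6, a cell cycle kinase, rose by 2.80 and Bach2, a repressor that restrains effector differentiation, by 0.49 on the log2 scale. Cdkn1b, the cell cycle inhibitor p27, fell by 1.60 and Jmjd1c, a JmjC-domain protein, by 0.87. In cKO against WT at 48 h edgeR called 0 of the 9. At an unadjusted p under 0.05, 3 passed in this comparison, as did 2753 of the 12404 genes tested. The log2 fold changes there were 0.32 ± 0.12 for Cdk6, 0.30 ± 0.10 for Cdkn1b (edgeR adjusted p = 0.0851), 0.23 ± 0.08 for Jmjd1c and 0.12 ± 0.08 for Bach2. Without both libraries labelled cKO replicate 1, 2 of the 9 were called higher, Cdk6 (0.44, edgeR adjusted p = 0.0109) and Cdkn1b (0.36, edgeR adjusted p = 0.0252). That fit called 1133 genes higher over the whole table.

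**Figure D4:**
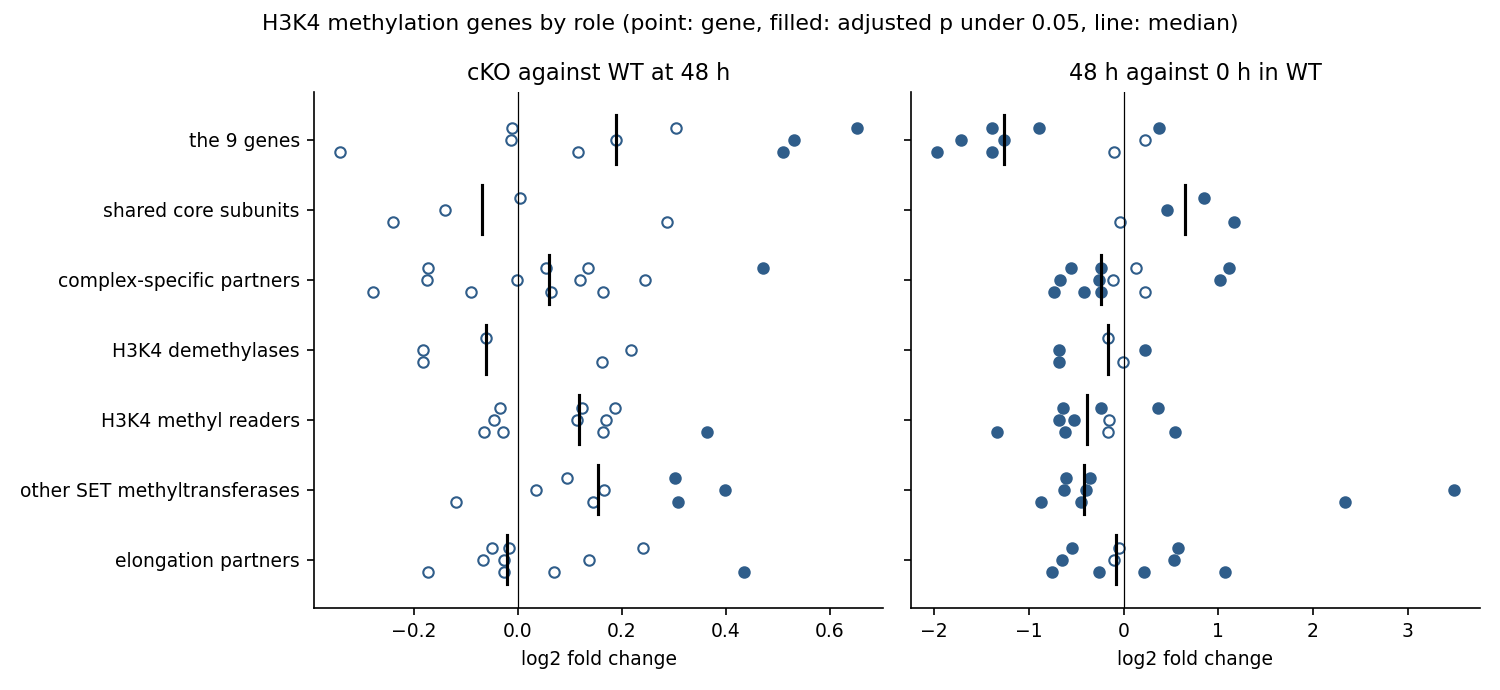
Log2 fold change (x axis) of the 9 genes and of 6 gene lists (rows) in cKO against WT at 48 h (left) and 48 h against 0 h in WT (right). The lists are shared core subunits, complex-specific partners, H3K4 demethylases, H3K4 methyl readers, other SET methyltransferases (among them H3K36 enzymes) and elongation partners. Each point is a gene, filled where the edgeR adjusted p was under 0.05, and the line is the list's median. The medians on the right are −1.26 for the 9 genes and 0.65 for the shared core subunits.

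Across the 12 libraries the 6 genes that fell over time varied together, as a description of libraries that differ mainly by time. Pearson's r of log2 CPM was 0.991 for Kmt2c with Kmt2d, 0.992 for Kmt2b with Kmt2e and 0.960 for Kmt2a with Kmt2c. Setd1a had r between −0.887 and −0.832 with these 6. Men1 and Psip1 had r of 0.225 with each other, Men1 had r of −0.507 with Kmt2a, and Psip1 had r of 0.335 with Kmt2a.

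Of 9384 genes with a mean of at least 5 CPM, those most like the mean standardized profile of the 7 KMT2 and SETD1 genes over the 12 libraries were Cdk13 (r = 0.991), Arid1a (0.991), Dync1h1 (0.991), Herc1 (0.990) and Ddx6 (0.990). Their coding lengths were 4533, 6861, 13932, 14577 and 1449 nt. Nearest to Kmt2a alone were Ubn1 (0.980), Map3k2 (0.979) and Erbin (0.978). Nearest to Men1 were Por (0.934), Ddx54 (0.919) and Ctnnbl1 (0.912), and nearest to Psip1 were Atxn2 (0.854), Cd4 (0.846) and Edrf1 (0.813).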

How the data were processed

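RNA libraries of CD8 T cells were represented by 12 columns of raw counts per gene, which the authors deposited as whole numbers for 16352 genes. RNA was extracted with TRIzol and 3 µg were used with a NEBNext Ultra kit, per the labels' protocols. The submitters' processing notes name fastp 0.20.1, FastQC 0.11.9, HISAT2 2.1.0, SAMtools 1.9, HTSeq 0.11.2 and the build GRCm39. A strand setting is not given in the sources used here.

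The 9 genes and all lists were chosen with earlier results of these data known. Genes passing filterByExpr (minimum count 10, total 15) were fitted with edgeR 4.0.16 in R 4.3.3 (TMM factors 0.9559 to 1.065, quasi-likelihood test, 1 mean per group over all 12 libraries, 8 residual degrees of freedom), with Benjamini-Hochberg adjustment over the 12404 genes. The median count of a tested gene per library was 955. Alternatives used DESeq2 1.42.0, limma 3.58.1 (voom), other scalings and filters, an offset for coding length, a replicate block, and fits without single libraries. Coding length was the longest coding sequence in GENCODE M21 (GRCm38), matched by symbol for 96.5% of tested genes, in place of the protein length that had been planned. The text names all 9 genes and 4 core subunits, of every other list the 4 genes with the smallest adjusted p in cKO against WT at 48 h and any called between genotypes, and the genes most alike in profile. Profiles used log2(CPM + 0.5). The fit was tested on simulated data with known fold changes.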

Additional observations from a re-analysis of the deposited data

Results flagged for a closer look

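The change of Kmt2a over time was 0.99 higher in cKO than in WT on the log2 scale, with a log2 fold change of −1.39 in WT and of −0.40 in cKO. It drew notice because it passed the threshold of the interaction fit, as it did in 11 of 22 alternatives, though not with the replicate block. Kmt2a was chosen with these values known, so that the value is a description and no test supports it. The outlier test was not applied, because groups held 3 libraries.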

How the results depend on the processing

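No result changed sign under an alternative while called. In cKO against WT at 48 h the main count of 3 genes higher was 1 with the coding-length offset, 0 without both libraries of WT replicate 3, and 0 to 3 without single libraries; the count of 0 lower was 1 (Men1) with DESeq2 and without both libraries labelled cKO replicate 1, and 0 to 1 without single libraries. In WT over time the count of 1 higher was 2 with RLE scaling, DESeq2, only the 6 libraries compared and without both libraries labelled cKO replicate 1, and 1 to 2 without single libraries. The count of 6 lower there was 7 (with Psip1) under upper-quartile scaling and the coding-length offset. In cKO over time the count of 1 higher was 0 with upper-quartile scaling, the coding-length offset and without both libraries labelled cKO replicate 1. For the interaction, the count of 1 higher was 3 without a filter, with DESeq2 and without both libraries labelled cKO replicate 1, 0 with the replicate block, the coding-length offset and without both libraries of WT replicate 3, and 0 to 3 without single libraries. The 6-library fit was not run for the interaction. The cause of these differences was not tested. Over all genes at 48 h, DESeq2 called 702 higher and 352 lower against 384 and 135 in edgeR, and limma-voom 359 and 302.

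Whether equal numbers at both times mean the same animal is not stated. Same-numbered libraries at 0 h and 48 h had correlated deviations of 0.0833, 0.134 and 0.205 in WT and 0.0839, 0.0844 and 0.0642 in cKO, and each matched its own number best. As not every value passed 0.1, the numbers were not taken as pairs, although the absence of Y-linked reads in WT replicate 3 and the WT-level Trmt61a in the library labelled cKO replicate 1 recurred at both times. The deposited column names also carry the same numbers at both times, and in WT these are not consecutive. If the numbers do mark pairs, the main fit leaves that pairing out. With the replicate block, which paired libraries within a genotype for the interaction, the count of the 9 genes called there was 0. For cKO against WT at 48 h the block instead joined same-numbered WT and cKO libraries, and 3 were called higher. That fit cannot show whether these calls would hold with pairing by animal, since it joins libraries of different genotypes. Upper-quartile scaling moved the median of all genes over time to −0.12 in WT and cKO.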
